A study of Mus musculus with 8 samples.

Results

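The comparison described here set the ONT cDNA kit against the ONT Direct RNA kit in cells of a single state, retinoic acid (RA)-treated embryoid bodies (Day4). The 4 Day4 libraries of the 8 in the series were taken by their labels, 2 per kit, and the Undiff libraries of both kits were used only as a second state. All libraries came from R1 mouse embryonic stem cells (ESCs), an established pluripotent line. Undiff cells were collected before RA, and Day4 cells were embryoid bodies formed for 4 days without leukaemia inhibitory factor and then kept for 4 days with RA, with no library of embryoid bodies without RA. By the methods of the study, the replicates were 2 separately grown and treated cultures whose RNA was used for both kits, so the libraries of the kits are not from different cultures. Each kit started from poly(A) RNA, with 500 ng taken into a Direct RNA library and 50 ng into a cDNA library. The values are reads per gene, so the counts measure which genes each kit recovered, not full-length molecules. In whole embryoid bodies, fewer cells of a type and less RNA per cell cannot be told apart.

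A Direct RNA library threads the native poly(A) RNA strand itself through the nanopore, starting from its 3′ end, with no copying of the molecule that is read. In the cDNA-PCR library, an oligo-dT primer starts reverse transcription at a run of A, a second strand is made by template switching, and PCR then multiplies the product, so that either strand can be read. PCR is known to multiply short templates more readily than long ones and to pass GC-rich stretches less well, and oligo-dT can also start on a run of A inside a transcript. Transcript classes by length, GC content, exon number, position of A runs, strand overlap and gene family were therefore described for both kits. For the gene counts, the methods of the study name only the Direct RNA libraries as counted by strand and do not spell out the cDNA setting, so at genes that overlap on opposite strands the kit and the counting rule cannot be told apart.

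The Day4 Direct RNA libraries held 283461 and 737569 reads on genes and the Day4 cDNA libraries 1318178 and 2077327. At these depths, 3 reads in a library corresponded to 10.6 and 4.07 CPM (counts scaled to equal library totals) for Direct RNA and to 2.28 and 1.44 CPM for cDNA. Fold changes of genes near these levels rest on few reads. Reads that fell on more than 1 gene and were left uncounted made up 1.99% and 1.98% of a Direct RNA library but 6.70% and 6.52% of a cDNA library. The state label was checked on fixed marker lists. The summed level of 25 pluripotency genes was 192 to 1266 CPM in the 4 Day4 libraries and 15280 to 29760 CPM in the 4 Undiff libraries. At Day4 it was higher in replicate 2 on both kits, with 254 and 710 CPM in Direct RNA and 192 and 1266 CPM in cDNA. The 24 RA response genes summed to 3951 to 9129 CPM at Day4 and 172 to 254 CPM in Undiff. The 39 Hox genes gave 1189 to 2764 CPM at Day4 against 5.74 to 8.82 CPM in Undiff. The 20 neural markers overlapped between the states on cDNA, with 693 and 699 CPM at Day4 against 690 and 870 CPM in Undiff. On Direct RNA they were lower at Day4, with 205 and 182 CPM against 692 and 715 CPM.

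As sequenced, the mean number of genes with more than 1 read was higher on the cDNA kit, but at equal depth it was lower. Detection reached 10631 and 12322 genes in Direct RNA (11477 ± 1196, SD, n = 2) and 11884 and 13180 genes in cDNA (12532 ± 916, SD, n = 2), and the kits overlapped. At the depth of the shallowest library, 283461 reads, the expected numbers were 10631 and 10644 genes with Direct RNA and 8581 and 9183 genes with cDNA, so the order turned and the kits did not overlap. The 100 most counted genes took 20.2% and 21.7% of the Direct RNA reads and 26.4% and 23.1% of the cDNA reads.

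Many genes measured at Day4 were counted at different levels by the kits, in both directions. Of 10381 genes at a mean normalised count of 5 or more, 3320 (32.0%) passed the DESeq2 test (adjusted p at most 0.05, at least 1 on the log2 scale), 1889 (18.2%) higher in cDNA and 1431 (13.8%) lower in cDNA. Here and below, a positive log2 fold change means more reads in cDNA, on the scale of the DESeq2 size factors, and "called" means past this test. On that scale a gene with equal CPM on both kits has a log2 fold change of 0.77. With size factors from the library totals, 3581 genes of 10492 (34.1%) were called, 854 (8.14%) higher and 2727 (26.0%) lower, so the share of calls that were higher in cDNA moved from 56.9% to 23.8%. All 1431 genes called lower stayed called on that scale, with 854 of the 1889 called higher, and all 2285 kept their direction. With edgeR's quasi-likelihood test, 5150 of 10409 genes (49.5%) were called, 3315 of them also by DESeq2. With only 2 libraries per kit the number of calls rested on each of them, with 1379 and 1509 calls without Direct RNA replicate 1 or 2 and 1164 and 1359 without cDNA replicate 1 or 2. Whichever library was left out, 514 of the higher and 264 of the lower genes stayed called. Each such fit leaves 1 library on a kit, which is assumed to vary like the libraries of the other kit, so a call held or lost in this way describes the dependence on a library and is not a replicated test. Medians of classes are given below beside the median of all genes tested, 0.07, or -0.65 with library totals. Counts of higher and lower calls in a class depend on the scale, and on the scale of library totals lower calls outnumber higher ones in most classes of genes.

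Transcript length separated the kits most plainly at the short end. Among the 455 genes whose longest annotated transcript was up to 1000 bases, 239 were higher in cDNA and 24 lower, with a median log2 fold change of 1.52. The median was 0.98 for 1000 to 2000 bases (563 higher, 170 lower, of 1730), 0.33 for 2000 to 3000 bases and -0.32 for 3000 to 5000 bases (425 higher, 593 lower, of 3643). It reached -0.58 for 5000 to 8000 bases (200 higher, 286 lower, of 1778), and the 564 genes over 8000 bases did not continue the fall (median -0.31, 75 higher, 71 lower). With library totals the balance of calls turned for 1000 to 2000 bases (219 higher, 285 lower), 2000 to 3000 bases (143 and 497, from 380 and 286) and over 8000 bases (39 and 154). It was 205 and 1143 for 3000 to 5000 bases and 113 and 606 for 5000 to 8000 bases, while up to 1000 bases it stayed higher (130 and 38). Genes up to 1000 bases took 6.41% and 9.85% of the Direct RNA reads and 16.8% and 11.4% in cDNA. The libraries of the 2 kits did not overlap in that share, yet the spread within each kit was wider than the gap between the nearest libraries. Genes of 5000 to 8000 bases took 12.6% and 9.09% in Direct RNA against 6.56% and 8.28% in cDNA.

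The coding length of a gene gave a similar order. Genes with up to 500 coding bases had a median of 1.36 (489 higher, 53 lower, of 1018), and the median fell to 0.76 for 500 to 1000, -0.05 for 1000 to 2000, -0.67 for 2000 to 3000 and -0.97 for 3000 to 5000 coding bases. The 425 genes over 5000 coding bases did not continue the fall (median -0.89, 42 higher, 86 lower). Genes with up to 500 coding bases held 14.5% and 19.7% of the Direct RNA reads, and their mean share in cDNA was 1.6 times that of Direct RNA. The 3′ untranslated region gave no such order beyond its shortest class, where the median was 0.81 for up to 300 bases and between -0.23 and 0.03 for all longer classes. Exon number followed the coding length. The median was 0.70 for genes with 2 to 4 exons (638 higher, 256 lower, of 2377) and -0.84 for genes with 20 or more (90 higher, 293 lower, of 1397), which took 10.3% and 7.77% of the reads in Direct RNA against a mean in cDNA 0.477 times as large. With library totals the calls were 251 higher and 97 lower for up to 500 coding bases, 48 and 574 for 20 or more exons and 23 and 176 for over 5000 coding bases, but the balance turned for 500 to 1000 coding bases (285 and 466) and for 2 to 4 exons (283 and 451).

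**Figure D1:**
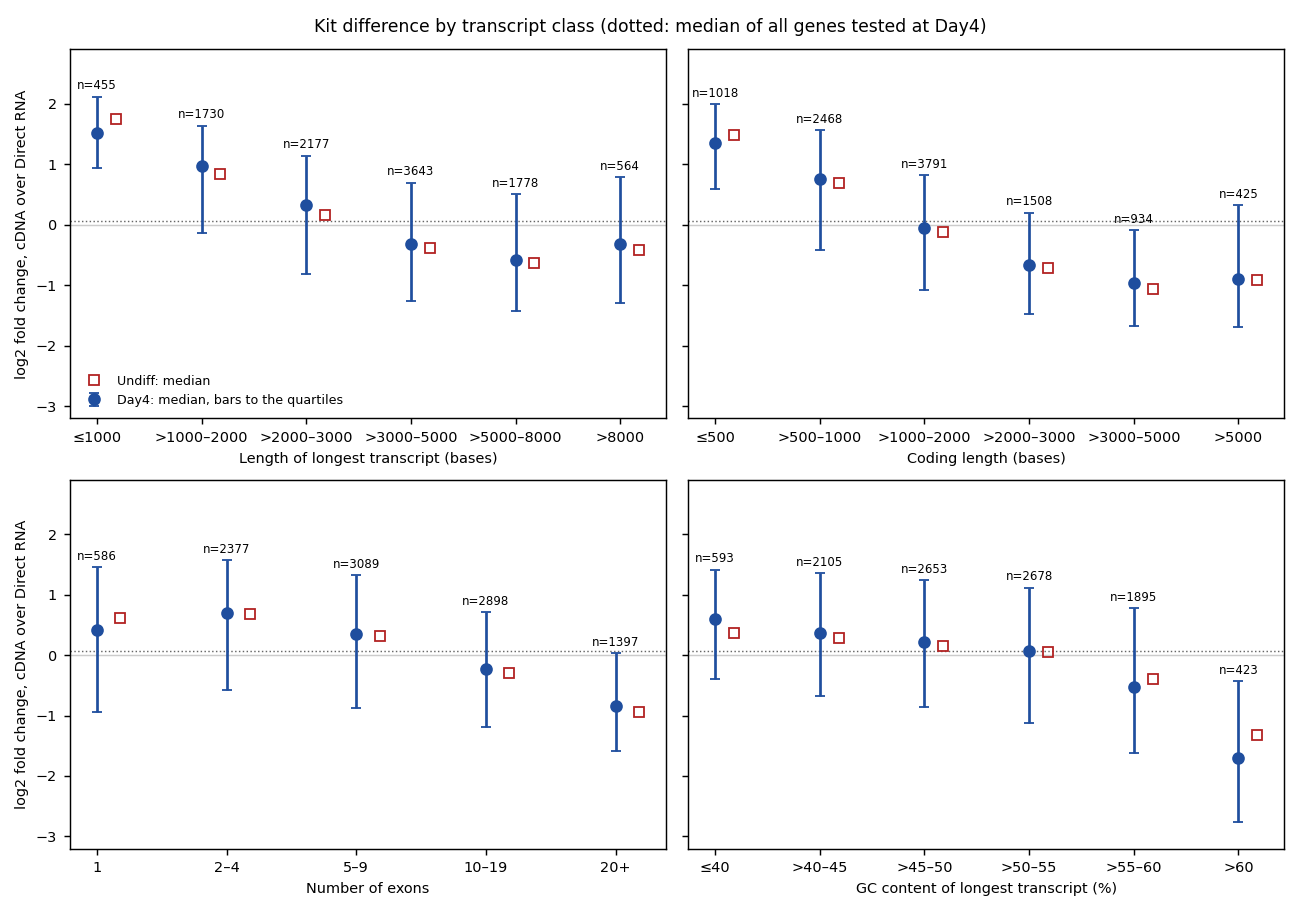
Median log2 fold change of cDNA over Direct RNA (y axis) by class of transcript length, coding length, exon number and GC content (x axes), with bars to the quartiles over genes at Day4 (circles) and the Undiff medians (open squares). At Day4 the medians fall from 1.52 to -0.58 along length before turning, from 1.36 to -0.97 along coding length before a last class at -0.89, and reach -1.69 above 60% GC.

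Genes of high GC content were counted lower on the cDNA kit. The median log2 fold change was 0.60 for the 593 genes up to 40% GC (139 higher, 33 lower) and 0.07 for the 2678 genes of 50 to 55% GC. It was -0.53 for the 1895 genes of 55 to 60% GC (241 higher, 415 lower) and -1.69 for the 423 genes over 60% GC (25 higher, 197 lower). With library totals the balance turned for up to 40% GC (59 higher, 79 lower, median -0.13), the calls were 106 and 731 for 55 to 60% GC, and the highest GC class kept 197 of its lower calls and 9 of its higher ones, and 59 lower and 4 higher calls held whichever library was left out. Genes over 60% GC took 4.07% and 4.64% of the Direct RNA reads and 2.77% and 2.01% in cDNA, with no overlap between the kits. An exact permutation test on such shares, 2 libraries against 2, cannot go below p = 0.333 (two-sided), and in 54 of the 70 classes the kits did not overlap. Counting error in any share was at most 0.18 percentage points (Wilson interval, 95%, counting error only).

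Within most length classes the median also fell with GC content. Among transcripts of 3000 to 5000 bases the median ran from 0.54 for up to 40% GC (237 genes) through 0.13, -0.18, -0.45 and -1.19 to -2.14 for over 60% GC (101 genes, 2 higher, 59 lower). Among transcripts of 1000 to 2000 bases it was 1.21 up to 40% GC (37 genes) and ran from 1.51 at 40 to 45% GC (202 genes) to -1.38 over 60% GC (125 genes, 9 higher, 53 lower). The shortest transcripts kept a positive median in each GC class with at least 20 genes, from 1.83 at 40 to 45% (39 genes) to 0.67 over 60% (34 genes). With genes that overlap another gene left out, the values were 1.81 for the shortest transcripts at 40 to 45% GC and -2.17 for 3000 to 5000 bases over 60% GC. The lowest value was then -2.27, for 5000 to 8000 bases over 60% GC (27 genes).

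**Figure D2:**
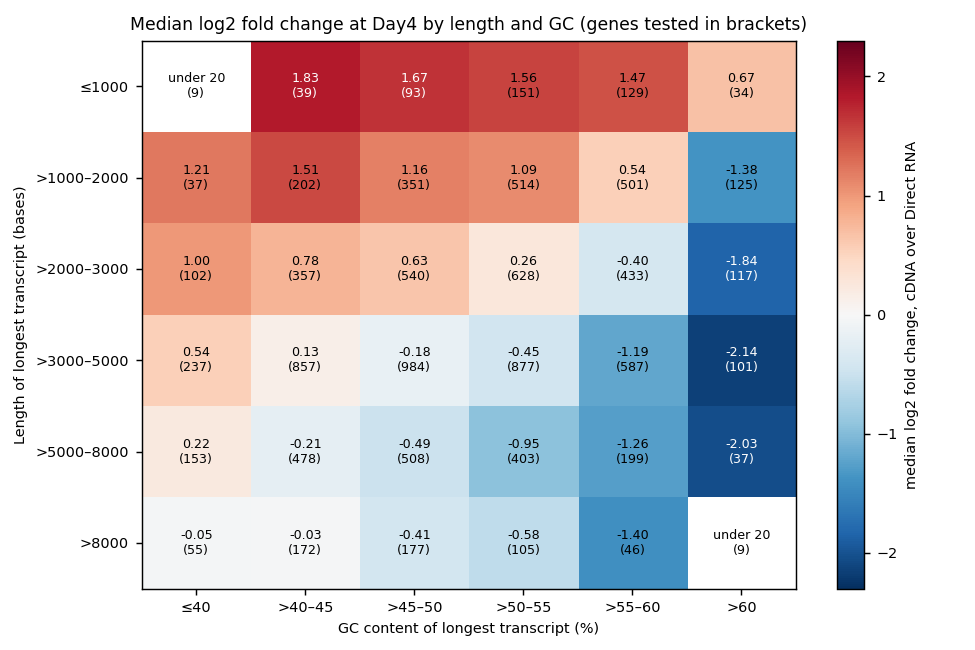
Median log2 fold change of cDNA over Direct RNA at Day4 (colour and number) for genes grouped by length of the longest transcript in bases (rows) and GC content in percent (columns), with the number of genes in brackets and cells under 20 genes left blank. Values run from 1.83 for transcripts up to 1000 bases of 40 to 45% GC to -2.14 for 3000 to 5000 bases over 60% GC.

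**Figure D3:**
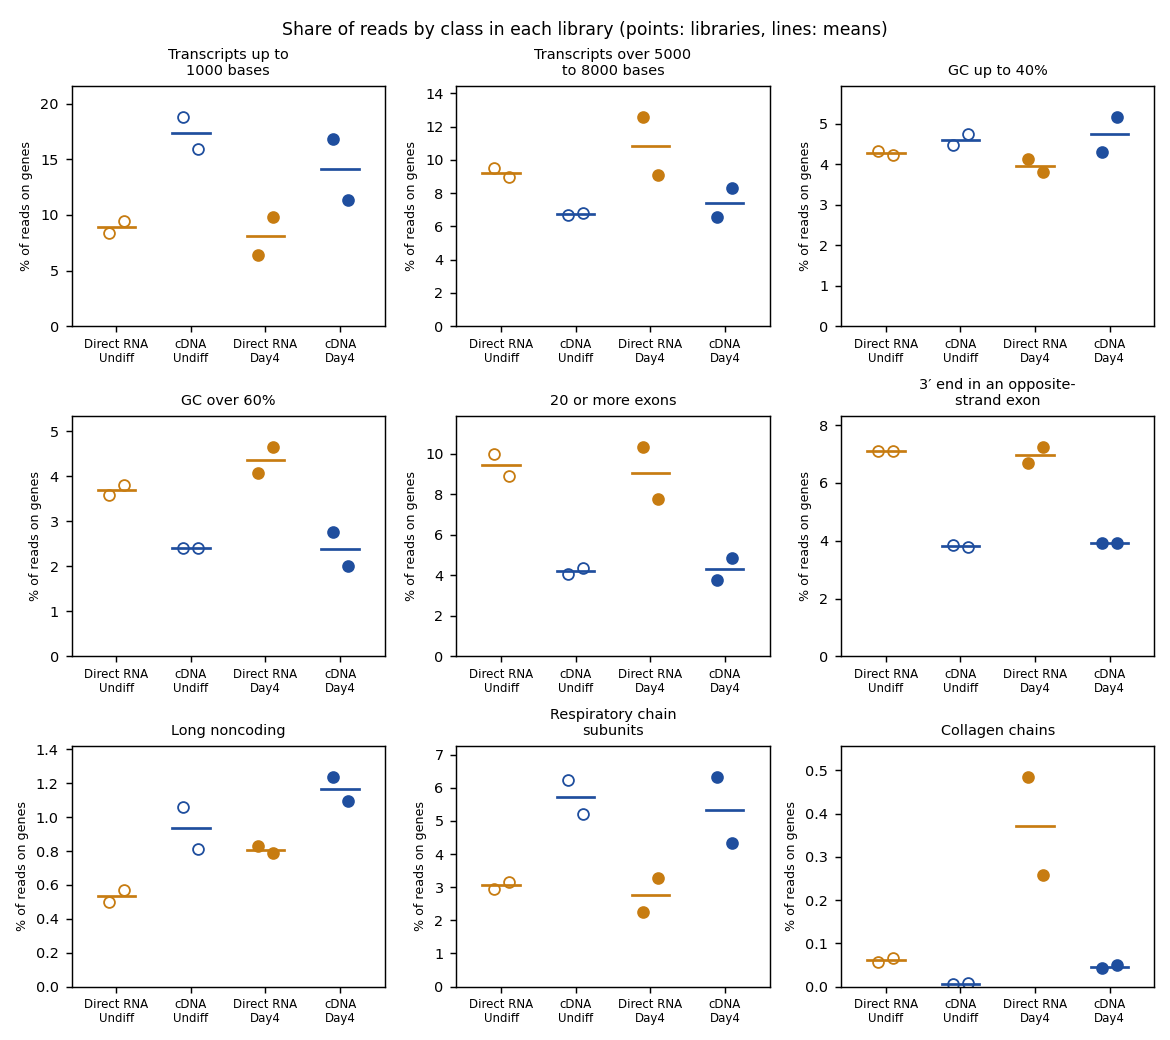
Percent of the reads on genes (y axis) that 9 classes took in each library (points) of the 4 groups on the x axis, with the group mean (line), Undiff as open and Day4 as filled points. At Day4 the kits do not overlap in any of the 9 classes, and short transcripts range from 6.41% in Direct RNA to 16.8% in cDNA.

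The base composition of single genes is shown by the 30 coding bases richest in G and C of 6 genes (GRCm38, G and C in capitals). Lower in cDNA were Scand1 (chr2:156312213-156312242, minus strand), which also overlaps Cnbd2 on the opposite strand, Ptov1 (chr7:44869474-44869503, minus strand) and Csnk1g2 (chr10:80638466-80638495, plus strand). Higher in cDNA were Cbx3 (chr6:51482483-51482512, plus strand), Gtf2a1 (chr12:91567726-91567755, minus strand) and Atp5l (chr9:44920610-44920639, minus strand). G and C fill 28 of 30 positions in the windows of Scand1 and Ptov1, 24 in Csnk1g2, 24 in Gtf2a1, 21 in Cbx3 and 20 in Atp5l, so such a window does not by itself separate the directions.
Scand1: CCCCGGCCCCGGaGCtCCCCGGCGCGCCCG
Ptov1: GCCCCGCaCCGCtCCGGCGCCGGGGGCCCC
Csnk1g2: GGGCGGCCGGGCaGCaaGCGGCaGCaCtCC
Cbx3: GGaCtCGGaCGaGGCCGaCttGGtGCtGGC
Gtf2a1: GtGGCaGCaCCCGCCCCGGCaCaaGCGCCG
Atp5l: tCGCGGaGaaGGCaCCGtCGatGGtaGCCG

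Among genes whose exons overlap no other gene, the largest losses on the cDNA kit were in genes of varied function. Sympk, a scaffold of the mRNA 3′ end processing machinery, had 166 and 176 CPM in Direct RNA and 1.52 and 1.44 CPM in cDNA, from 47 and 130 reads against 2 and 3 (log2 fold change -5.57 ± 0.69, SE, DESeq2 adjusted p = 2.4e-13). Eif3f, a subunit of the translation initiation factor eIF3, had 1140 and 1220 CPM against 37.9 and 33.2 CPM (-4.18 ± 0.40, adjusted p = 1.1e-22). For both genes the Direct RNA libraries lay far above the cDNA libraries and the replicates lay close together. Odc1, the rate-limiting enzyme of polyamine synthesis, had 409 and 422 CPM against 7.59 and 14.9 CPM (-4.29 ± 0.47, adjusted p = 1.9e-17). Ptov1, whose window is printed above, had 392 and 598 CPM against 20.5 and 16.4 CPM (-3.86 ± 0.47, adjusted p = 4.1e-14). Akirin2, C1qbp and Csnk1g2 were at -5.55, -5.19 and -4.20, and in each of these genes every Direct RNA library was above both cDNA libraries.

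The genes with the largest gains on the cDNA kit also had varied functions. Malat1, a nuclear long noncoding RNA of 6983 bases and a single exon (chr19:5795690-5802672, minus strand), had 14.1 and 8.13 CPM in Direct RNA, from 4 and 6 reads, and 1350 and 606 CPM in cDNA (6.91 ± 0.60, adjusted p = 3.5e-27). Cbx3, a heterochromatin protein, had 24.7 and 8.13 CPM against 831 and 1110 CPM (6.55 ± 0.52, adjusted p = 2.8e-33). Gtf2a1, a subunit of the general transcription factor TFIIA, had 42.3 and 14.9 CPM against 1100 and 1130 CPM (5.99 ± 0.48, adjusted p = 3.1e-32). Each gene was low in both Direct RNA libraries and far above that in both cDNA libraries. Gigyf1, a translational repressor partner, had 17.6 and 4.07 CPM against 444 and 401 CPM (5.98 ± 0.59, adjusted p = 3.2e-21), and Dpysl2, a neuronal microtubule regulator, had 7.06 and 8.13 CPM against 407 and 337 CPM (5.94 ± 0.60, adjusted p = 1.7e-20). Itpripl1 and Gm15800 had 0 and 1 read in the Direct RNA libraries, and their CPM ratios of 155 and 110 have counting intervals from 27.8 to 6150 and from 19.6 to 4350. Cbx3 has near-identical copies, 551 of 552 bases shared with Cbx3-ps6 on the same strand and 99.8% of 608 aligned bases shared with Gm49164 on the opposite strand, so its counts are uncertain.

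Runs of A inside the transcript were more frequent among the genes with the largest gains, although as a class the genes with such runs were near the background. A run of 12 or more A, searched on the transcript strand and leaving out the last 30 bases, was found in 10.9% of the genes tested. Of the 1129 genes with such a run, 19.3% were called higher against 18.2% of all genes, with a median of 0.14, and their share of the reads overlapped between the kits. It was present in 11.6% of the 1882 annotated genes called higher, in 18.6% of the 253 with a log2 fold change from 3 upwards, in 23.0% of the 87 from 4 and in 30.8% of the 26 from 5. In the genes called lower it was present in 7.48% of 1430 and in 3.12% of the 128 at -4 or below. The genes higher by 4 or more also had longer transcripts (median 4476 bases) than all genes tested (3377 bases), and a longer transcript has more room for a run. A match says only that the letters are there, and whether reads started at these runs was not tested.

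Runs of A in 4 of the genes with large gains are printed below (GRCm38, transcript strand, the run in capitals), because they are the sites an oligo-dT primer could bind. The Malat1 window (chr19:5795979-5796008, minus strand) ends 289 bases before the annotated 3′ end, and the windows of Gigyf1 (chr5:137526067-137526095, plus strand), Lrrc8a (chr2:30262830-30262859, plus strand) and Nfia (chr4:98114258-98114287, plus strand) lie in the 3′ untranslated region. The runs hold 12, 13, 14 and 38 A, and the window of Nfia shows the start of the run only.
Malat1: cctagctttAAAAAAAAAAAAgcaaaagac
Gigyf1: ttttttagAAAAAAAAAAAAAgataaaaa
Lrrc8a: aaaaaattAAAAAAAAAAAAAAgacactaa
Nfia: tgtgcactAAAAAAAAAAAAAAAAAAAAAA

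Lrrc8a, a volume-regulated anion channel subunit, had 21.2 and 4.07 CPM in Direct RNA against 266 and 182 CPM in cDNA (4.90 ± 0.62, adjusted p = 5.4e-13). Nfia, a nuclear factor I transcription factor, had 21.2 and 12.2 CPM against 306 and 496 CPM (5.18 ± 0.52, adjusted p = 1.1e-20). Both genes share exon bases with an opposite-strand gene, 1700084E18Rik and E130114P18Rik, as do Zscan26 (5.21) and Tbck (4.95), the other 2 highest of that group. In all 4 genes each cDNA library was above both Direct RNA libraries.

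**Figure D4:**
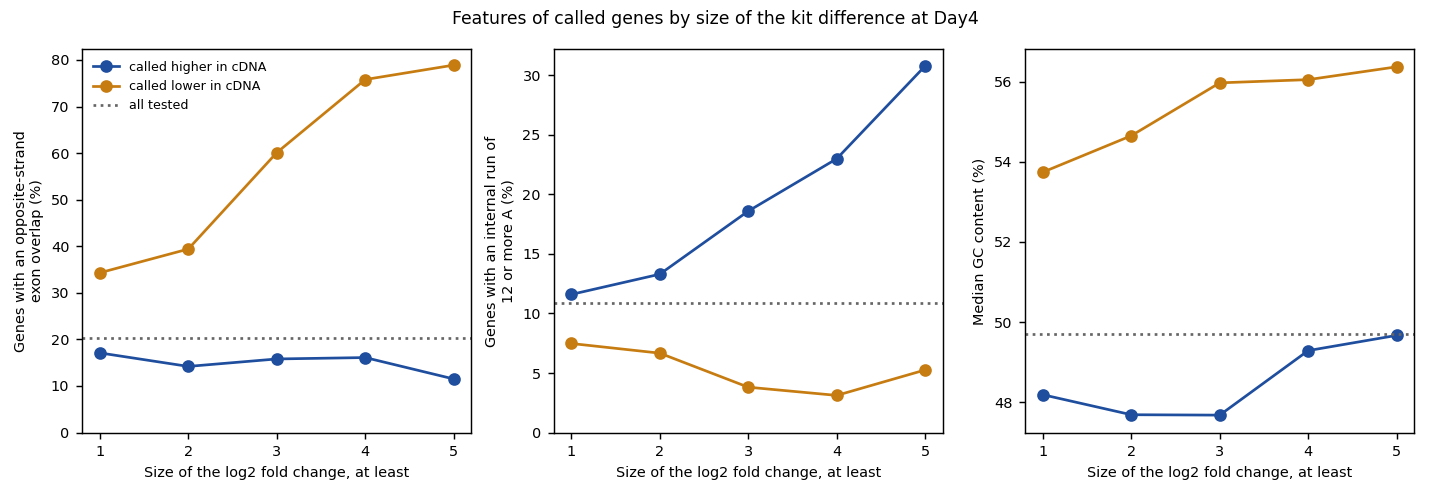
Percent of called genes with an opposite-strand exon overlap, percent with an internal run of 12 or more A, and median GC content in percent (y axes of the 3 panels, the last not starting at 0) against the smallest size of the log2 fold change (x axis), for genes called higher (blue) and lower (orange) in cDNA and all genes tested (dotted). Opposite-strand overlap rises from 34.3% to 78.9% among genes called lower, and A runs from 11.6% to 30.8% among genes called higher.

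Genes that share exon bases with a gene on the opposite strand were low on the cDNA kit when the overlap included their 3′ end. Of 658 such genes, 64 were higher and 243 lower, with a median of -1.04, against 258 higher and 248 lower and a median of -0.08 in 1443 genes with an opposite-strand overlap elsewhere. Genes with no exon overlap had a median of 0.14 (1499 higher, 917 lower, of 7956). With library totals lower calls prevailed in each of these classes, 19 higher and 333 lower with the 3′ end in the overlap, 109 and 443 with it elsewhere, and 686 and 1903 without overlap. The 658 genes took 6.70% and 7.23% of the Direct RNA reads and 3.91% and 3.93% in cDNA, a wider gap than the spread between replicates. Of the lower calls, 78 held whichever library was left out. Opposite-strand overlap was present in 20.3% of all genes tested, in 34.3% of the genes called lower and in 78.9% of the 38 genes at -5 or below.

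The proportion of lower calls was larger where more of a transcript lay under opposite-strand exons, but the medians were not so ordered. Lower calls made up 11.3% of 8633 genes with none, 24.1% of 926 genes with up to 10%, 25.3% of 427 genes with 10 to 25%, 34.4% of 270 genes with 25 to 50% and 36.3% of 91 genes with over 50%. The medians of these 5 classes were 0.16, -0.58, -0.37, -0.64 and -0.66. Of 748 pairs of overlapping genes in which both were tested, both were lower in 59 (7.89%), 1 was lower in 225 and neither was lower in 464. In 161 pairs both 3′ ends lay in an opposite-strand exon, of the partner or of another gene. Of these pairs, both genes were lower in 28 (17.4%) and both higher in 0, against 31 (5.28%) and 25 of the other 587 pairs. The uncounted reads that fell on more than 1 gene, given above, were higher in both cDNA libraries than in both Direct RNA libraries, and their part in these losses was not tested.

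Taf10 and Ilk were a pair in which both genes were low on the cDNA kit. Taf10, a subunit of the general transcription factor TFIID (chr7:105739393-105744361, minus strand), had 187 and 259 CPM in Direct RNA, from 53 and 191 reads, and 0 reads in both cDNA libraries (in CPM at least 120-fold lower, against a floor of 3 reads in each cDNA library, adjusted p = 1.1e-13). Ilk, integrin-linked kinase (chr7:105736592-105742925, plus strand), had 198 and 182 CPM against 2.28 and 4.33 CPM (-4.75 ± 0.60, adjusted p = 3.9e-13). Both genes were well counted on the Direct RNA kit and near the floor on the cDNA kit. Their annotated exons share 1533 bases, and the middle 30 are printed for each gene as its own transcript reads them (chr7:105742704-105742733, 3′ untranslated region of both).
Taf10: taactttggagaagtgtactcccccagcca
Ilk: tggctgggggagtacacttctccaaagtta

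Other overlapping genes showed the same order of levels. Scand1, a small SCAN domain protein that overlaps Cnbd2, had 191 and 343 CPM in Direct RNA against 0.759 and 2.41 CPM in cDNA (-6.05 ± 0.68, adjusted p = 1.3e-16). Carm1, an arginine methyltransferase that overlaps Yipf2, had 152 and 217 CPM against 1.52 and 0.963 CPM (-5.89 ± 0.72, adjusted p = 9.3e-14). The uncharacterised 1110008F13Rik, which overlaps Sla2, had 44 and 156 reads against 0 and 0 (at least 98.6-fold lower in CPM against the same floor), and Srsf4, a splicing factor that overlaps Gm12992, had 39 and 98 reads against 0 and 0 (at least 72.7-fold lower). In all, 25 tested genes had 0 reads in both cDNA libraries, of which 17 overlap an opposite-strand exon and 10 have their 3′ end in it. In the other direction, 15 genes had 0 reads in both Direct RNA libraries, of which 2 overlap an opposite-strand exon and 4 are long noncoding. Of the 10347 annotated genes tested, 20.3% overlap an opposite-strand exon, 6.36% have their 3′ end in it and 164 are long noncoding. The 25 and the 15 genes reached the mean count of 5 only through the kit that counted them.

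Near-identical copies marked a further set. Of 60 genes with a copy of at least 200 bases and 98% identity on the opposite strand, 19 (31.7%) were higher and 4 (6.67%) lower (median 0.87). Of 491 with a copy on the same strand only, 168 (34.2%) were higher and 44 (8.96%) lower (median 0.85), against 18.2% and 13.8% of all genes. Both medians lay near 0.77, the value of a gene with equal CPM on both kits. The 9796 genes without a copy had a median of 0.02. The extreme case was Gm5148, a predicted gene (chr3:37714190-37724490, minus strand). Gm5148 had 0 reads in both Direct RNA libraries and 7936 and 6769 reads, 6020 and 3260 CPM, in cDNA (in CPM at least 633-fold higher, against 3 reads in each Direct RNA library, adjusted p = 3.5e-37). Its transcript matches the ribosomal protein gene Rps23 read backwards over 426 of 426 bases, and Rps23 itself, on the sense strand, had 120 and 134 CPM in Direct RNA against 259 and 297 CPM in cDNA (1.83 ± 0.41, adjusted p = 0.00013). The counts of Gm5148 and Rps23 cannot be told apart at these bases without strand. The 30 bases below (Gm5148, chr3:37715106-37715135, minus strand, and Rps23, chr13:90924618-90924647, plus strand, coding) are complementary along their whole length.
Gm5148: agccaacagagaaacattggctactttaac
Rps23: gttaaagtagccaatgtttctctgttggct

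The most counted small RNA locus was one with a near-identical copy. Mir682, annotated as a microRNA gene of 96 bases, had 2230 and 3160 CPM in Direct RNA and 8300 and 2950 CPM in cDNA, and the kits overlapped (1.83 ± 0.50, adjusted p = 0.0023, with p between 0.41 and 0.7 without Direct RNA replicate 1 or 2 or cDNA replicate 1). The locus shares 95 of 96 bases with an annotated intron-retaining transcript of Rpl37a, a ribosomal protein gene on chromosome 1, which had 526 and 473 CPM against 1070 and 598 CPM (1.52 ± 0.43, adjusted p = 0.0039, and 0.37 without cDNA replicate 1). Poly(A) kits are not made to capture mature microRNAs, so these reads cannot be told apart from Rpl37a transcripts. The mature miR-682 (RefSeq, chr13:75645119-75645139, GRCm38, plus strand, seed in capitals) is present base for base in Rpl37a (chr1:72713510-72713530, plus strand).
miR-682: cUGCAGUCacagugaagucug
Rpl37a: ctgcagtcacagtgaagtctg

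By gene type, noncoding transcripts leaned towards the cDNA kit. Of 164 long noncoding genes, 42 were higher and 5 lower, with a median of 1.29, and they took 0.829% and 0.788% of the reads in Direct RNA against 1.23% and 1.09% in cDNA. The 36 pseudogenes had 14 higher and 0 lower calls (median 1.25), and protein-coding genes had 1822 higher and 1425 lower (median 0.03). With library totals protein-coding genes had 820 higher and 2712 lower calls, pseudogenes 10 and 0 and long noncoding genes 17 and 11. Of the long noncoding calls, 9 of the higher calls and 0 of the lower held whichever library was left out. Their annotated transcripts were short (median 2104 bases) and had few exons (median 3). The pseudogene share was 0.445% and 0.743% for the Direct RNA libraries, against 1.63% and 0.746% for the cDNA libraries. Replicate 2 was thus almost level between the kits, and the higher mean share in cDNA rested largely on cDNA replicate 1.

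Single noncoding RNAs differed widely from each other. Gas5, a spliced host of small nucleolar RNAs, had 95.3 and 179 CPM in Direct RNA against 780 and 589 CPM in cDNA (2.97 ± 0.45, adjusted p = 3.3e-09). Tug1, a broadly expressed long noncoding RNA, had 84.7 and 38 CPM against 222 and 321 CPM (2.87 ± 0.46, adjusted p = 3.2e-08). Both were higher in each cDNA library than in either Direct RNA library, and Tug1 overlaps Morc2a on the opposite strand. H19, an abundant imprinted noncoding RNA, had 3270 and 1200 CPM against 967 and 342 CPM, which was not called (-0.76 ± 0.88, adjusted p = 0.7, and 0.16 with the replicate number as a block). On both kits H19 was higher in replicate 1 than in replicate 2, and within each number it was lower in cDNA. Rian had 67.0 and 141 CPM against 5.31 and 38 CPM (-1.51 ± 0.67, adjusted p = 0.098), and Meg3 had 7.06 and 28.5 CPM against 57.7 and 949 CPM, a call (3.57 ± 1.16, adjusted p = 0.014) that was lost without cDNA replicate 2 (0.17) and without either Direct RNA library (0.37 and 0.2). Of 12 named long noncoding RNAs tested, 4 were higher and 0 lower (3 and 1 with library totals), against 18.2% and 13.8% of all genes, and their share of the reads overlapped between the kits.

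Families of short housekeeping transcripts were counted higher on the cDNA kit. Of 80 respiratory chain subunits, which carry out oxidative phosphorylation, 58 were higher and 0 lower (median 1.79), and they took 2.26% and 3.29% of the reads in Direct RNA with a mean in cDNA 1.92 times as large. Of 43 proteasome subunits, 30 were higher and 2 lower (median 1.69), and of 77 mitochondrial ribosomal proteins 51 were higher and 2 lower (median 1.65). With library totals these counts were 38 and 2, 14 and 5, and 29 and 4. Their median coding lengths were 428, 813 and 573 bases, against 1329 bases over all genes tested. The 76 cytosolic ribosomal proteins, with a median coding length of 456 bases, had 34 higher and 3 lower calls (median 1.04, and 16 and 8 calls with library totals), and their share of the reads overlapped between the kits. Among genes with a mean of 50 or more, the difference from the median of all such genes was smaller, 0.87 in place of 1.73 for the respiratory chain, 0.68 in place of 1.62 for the proteasome, 0.74 in place of 1.58 for mitochondrial and 0.08 in place of 0.98 for cytosolic ribosomal proteins.

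Named members of these families show the sizes. Ndufa5, of complex I, had 81.1 and 178 CPM in Direct RNA against 1130 and 655 CPM in cDNA (3.41 ± 0.49, adjusted p = 2.7e-10). Cox4i1, of complex IV and the most counted member, had 1040 and 1470 CPM against 4160 and 2270 CPM (2.10 ± 0.44, adjusted p = 4.2e-05). Atp5l, of the ATP synthase, had 10.6 and 5.42 CPM against 117 and 70.3 CPM (4.11 ± 0.69, adjusted p = 1.3e-07). Each cDNA library was above both Direct RNA libraries for the 3 genes. Atp5l shares 310 of 312 aligned bases with Atp5l2-ps on the same strand, so its counts are uncertain, and Cox4i1 overlaps Emc8 on the opposite strand. Psma7, of the 20S proteasome core, had 374 and 541 CPM against 2010 and 1690 CPM (2.72 ± 0.40, adjusted p = 9.3e-10), while Psmd3, of the regulatory particle, had 275 and 233 CPM against 34.1 and 29.8 CPM (-2.14 ± 0.45, adjusted p = 5.2e-05, and 0.051 without cDNA replicate 2). Mrps14 had 159 and 176 CPM against 815 and 620 CPM (2.81 ± 0.41, adjusted p = 9e-10), and Mrpl24, which overlaps Rrnad1 on the opposite strand, 113 and 180 CPM against 1.52 and 3.85 CPM (-4.64 ± 0.66, adjusted p = 1.8e-10). Rps14 had 212 and 310 CPM against 3440 and 3610 CPM (4.39 ± 0.38, adjusted p = 4e-27), and Rps3, the most counted ribosomal protein gene, had 4230 and 5360 CPM against 6260 and 4350 CPM, with overlapping kits (0.92 ± 0.40, adjusted p = 0.088).

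Collagen chains, structural proteins of the extracellular matrix, were mostly counted lower on the cDNA kit. Of 19 collagen chains tested, 11 were lower and 1 higher, with a median of -2.21, against the 13.8% of all genes called lower, and of 5 laminin chains 3 were lower and 0 higher, of which 0 stayed called whichever library was left out. Collagen chains took 0.484% and 0.258% of the Direct RNA reads, and their mean share in cDNA was 0.123 times as large. Their transcripts were long (median 5658 bases), of 57.7% GC and of 51 exons by median, against 3377 bases, 49.7% and 8 exons over all genes tested. The marker lists that hold such genes moved with them. The 15 mesenchyme markers summed to 5906 and 3663 CPM in Direct RNA and 1351 and 1398 CPM in cDNA, and the 14 basement membrane markers to 4537 and 3859 CPM against 1791 and 2161 CPM, from the same cell state, and part of these lists are collagens and laminins. Of 12 mesenchyme genes tested 7 were lower and 0 higher.

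Col3a1, a fibrillar collagen and the most counted chain (chr1:45311538-45349706), had 1850 and 847 CPM in Direct RNA against 136 and 151 CPM in cDNA (-2.37 ± 0.42, adjusted p = 6.2e-07). Col1a1, the main fibrillar chain of bone and skin, had 448 and 164 CPM against 13.7 and 20.7 CPM (-3.21 ± 0.52, adjusted p = 4.9e-08). Col18a1, a basement membrane collagen, had 776 and 567 CPM against 76.6 and 61.6 CPM (-2.42 ± 0.41, adjusted p = 2.3e-07). In these 3 genes the Direct RNA libraries were well above the cDNA libraries, although the Direct RNA replicates of Col3a1 and Col1a1 differed by more than 2-fold. Calls for these 3 and for Col6a2, Col26a1 and Col4a1 (-3.93, -3.14 and -2.96) held whichever library was left out. Those for Col6a1, Col4a2, Col5a1, Col4a5 and Col1a2 (-2.74 to -1.67) were lost without at least 1 library, with adjusted p up to 0.71. The exception was Col27a1, with 3.53 and 4.07 CPM against 15.2 and 26.0 CPM (2.63 ± 0.90, adjusted p = 0.021), which was lost without each library (0.16 to 0.47) and with library totals (0.13).

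**Figure D5:**
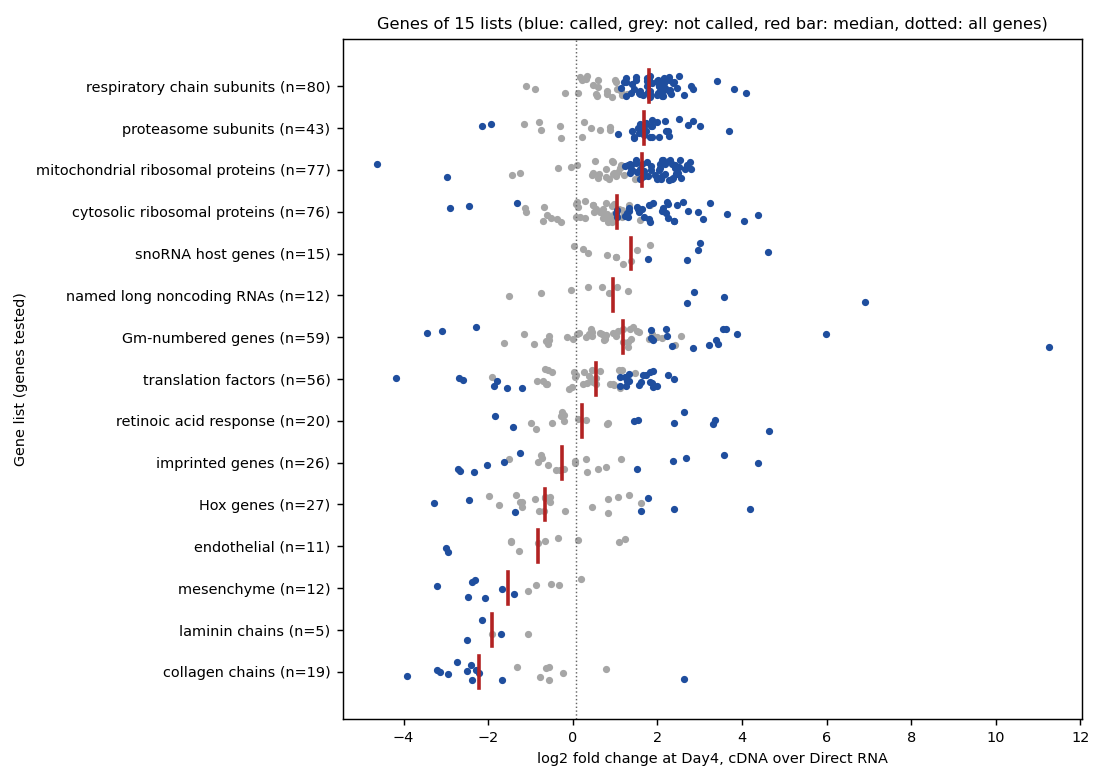
Log2 fold change of cDNA over Direct RNA at Day4 (x axis) for each gene tested of 15 gene lists (rows, number of genes in brackets), called genes in blue, others in grey, list medians as red bars and the median of all genes, 0.07, dotted. List medians run from 1.79 for respiratory chain subunits to -2.21 for collagen chains.

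RA response genes, the genes this treatment induces, had calls in both directions. Of 20 tested, 7 were higher and 2 lower (18.2% and 13.8% of all genes were), with a median of 0.22. With library totals 4 were higher and 5 lower, against 8.14% and 26.0% of all genes. Among the 16 with a mean of 50 or more, the difference from the median of all such genes was -0.65, and over all 20 it was 0.16, while the summed level of the 24 listed genes was 4625 and 3951 CPM in Direct RNA against 8553 and 9129 CPM in cDNA. Dhrs3, a retinaldehyde reductase that limits RA synthesis (chr4:144892827-144928209), had the largest difference of the list, with 318 and 160 CPM against 3870 and 3490 CPM (4.64 ± 0.41, adjusted p = 4e-27). Crabp2, a cellular RA-binding protein, had 74.1 and 140 CPM against 633 and 815 CPM (3.35 ± 0.42, adjusted p = 5.1e-13). Nr2f2, an orphan nuclear receptor, had 279 and 159 CPM against 1000 and 1720 CPM (3.31 ± 0.40, adjusted p = 1.9e-14). The 3 genes, with Meis1 (2.62), stayed called whichever library was left out, and in each the cDNA libraries lay above both Direct RNA libraries.

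Other RA targets were not called, or lost their call when a library was left out. Rarb, the RA receptor that RA itself induces, had 413 and 312 CPM against 103 and 124 CPM (-0.88 ± 0.40, adjusted p = 0.11), and Cyp26a1, which degrades RA, had 123 and 94.9 CPM against 48.6 and 61.1 CPM (-0.21 ± 0.48, adjusted p = 0.9). In CPM both genes were lower in each cDNA library, which the size-factor scale does not call, and Rarb overlaps Top2b on the opposite strand, as Gata6 overlaps 1010001N08Rik and Nr2f2 overlaps B130024G19Rik. Gata6, an endoderm transcription factor, had 427 and 332 CPM against 47.0 and 74.6 CPM (-1.84 ± 0.41, adjusted p = 0.00015, and 0.054 without cDNA replicate 1). Gata4 (-1.42), Crabp1 (1.44) and Hoxb1 (2.38) were also called, and each was lost without at least 2 of the libraries in turn, with adjusted p from 0.062 to 0.58.

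The 27 Hox genes tested, which set positional identity along the body axis, had 4 higher (14.8%) and 3 lower (11.1%) calls, near the 18.2% and 13.8% of all genes, and a median of -0.65. With library totals 1 was higher and 9 were lower. Hoxa5 had 293 and 563 CPM in Direct RNA against 48.6 and 37.5 CPM in cDNA (-2.46 ± 0.48, adjusted p = 7.4e-06, and 0.063 without Direct RNA replicate 2). Hoxb8 had 77.6 and 65.1 CPM against 1.52 and 5.30 CPM (-3.29 ± 0.71, adjusted p = 6.8e-05) and was the only Hox call to hold whichever library was left out. Hoxb5, with the most reads summed over the 4 libraries, had 38.8 and 178 CPM against 223 and 211 CPM (1.61 ± 0.55, adjusted p = 0.021). That call was lost without Direct RNA replicate 1 and without either cDNA library. The exons of Hoxb5 overlap Hoxb5os on the opposite strand.

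Of 26 imprinted genes tested, which are expressed from 1 parental allele, 5 (19.2%) were higher and 6 (23.1%) lower (median -0.26), against 18.2% and 13.8% of all genes, and 4 were higher and 10 lower with library totals. Dlk1, a Notch-related growth regulator, had 4210 and 3160 CPM in Direct RNA against 288 and 366 CPM in cDNA (-2.68 ± 0.35, adjusted p = 3.4e-12). Gnas, the stimulatory G protein alpha subunit locus, had 2600 and 2720 CPM against 216 and 245 CPM (-2.71 ± 0.35, adjusted p = 2.8e-12) and overlaps Nespas on the opposite strand, and Peg3 lay at -2.34. Impact, a translational regulator, had 70.6 and 63.7 CPM against 818 and 958 CPM (4.37 ± 0.40, adjusted p = 7e-25), and Peg10, a retrotransposon-derived gene, had 183 and 62.4 CPM against 426 and 517 CPM (2.68 ± 0.46, adjusted p = 3.6e-07). The kits did not overlap for any of these 5 genes.

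Further lists held single differences in both directions. Translation factors had 19 higher and 7 lower calls of 56 (33.9% and 12.5%, median 0.55), but 6 and 13 with library totals, and they took less of the reads in cDNA (3.15% and 3.32%) than in Direct RNA (4.86% and 4.39%). Their members ran from Eif3f at -4.18 to Eif1, a start codon selection factor, with 1070 and 1340 CPM against 3910 and 3840 CPM (2.40 ± 0.37, adjusted p = 4.8e-09), with a near-identical same-strand copy, Gm10157, that makes its counts uncertain. Eef1a1, the elongation factor and the gene with the most reads of the list, had 24300 and 20200 CPM against 7910 and 9400 CPM, which was not called (-0.59 ± 0.34, adjusted p = 0.25) although the kits did not overlap in CPM. Zinc finger genes named Zfp had 23 higher and 22 lower calls of 260 (8.85% and 8.46%, median -0.05), and solute carriers 12 and 17 of 140 (8.57% and 12.1%, median -0.28), against 18.2% and 13.8% of all genes. With library totals these were 7 and 56, and 7 and 38.

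The difference between the kits also moved with the level of a gene. The median log2 fold change was -0.33 for the 1638 genes with a mean normalised count of 5 to 10 (28 higher, 101 lower) and -0.47 for 10 to 20. It was 0.49 for 50 to 100, 1.23 for 100 to 500 (849 higher, 152 lower, of 1565) and 1.65 for the 269 genes over 500 (186 higher, 10 lower). The genes over 500 were also shorter, with a median coding length of 596 bases against 1581 bases in the lowest class, so level and length cannot be told apart here. Within the 3473 genes at a mean of 50 or more, the median of all genes was 0.95, and relative to it the difference was -2.11 for genes over 60% GC, 0.81 for transcripts up to 1000 bases and -3.40 for collagen chains.

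The kit differences of Day4 were largely those of Undiff. In Undiff, 2784 of 9437 genes (29.5%) were called between the kits. Of the Day4 calls, 2077 were also called in Undiff, 62.6% of the Day4 calls and 74.6% of the Undiff calls, all in the same direction. Over 8524 genes that reached a mean of 5 in both states, the log2 fold changes of the states correlated with Pearson r = 0.919 and Spearman rho = 0.922, across genes, which are not independent replicates. A further 388 genes called at Day4 had a mean under 5 in Undiff, where the kits could not be compared. The class medians in Undiff were 1.75 for transcripts up to 1000 bases, -1.33 for genes over 60% GC, -0.82 for opposite-strand overlap at the 3′ end, 1.41 for long noncoding genes and -2.44 for collagen chains.

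A test of the difference itself, the interaction of kit and state over all 8 libraries in DESeq2, called 2 of 17267 genes (0.0116%), Clmp and Plvap. Clmp, an adhesion molecule of tight junctions, had 27 and 40 reads in Direct RNA and 11 and 52 in cDNA at Day4, but 1 and 1 against 41 and 97 in Undiff (interaction -7.16 ± 1.36 on the log2 scale, adjusted p = 0.0025). Plvap, a protein of endothelial fenestrae, had 28 and 60 reads against 8 and 11 at Day4 and 11 and 18 against 20 and 61 in Undiff (-4.24 ± 0.93, adjusted p = 0.039). An unadjusted p of at most 0.05 in the DESeq2 test was reached by 161 of the 17267 genes. That share is below the cutoff of 0.05 itself, so this count is no sign of further differences. With edgeR 14 genes were called.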

How the data were processed

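The authors deposited raw read counts per gene symbol for each of the 8 libraries, made by htseq-count after alignment with minimap2 to mm10 with a UCSC annotation. The methods name Direct RNA gene counts as strand-specific and do not spell out the cDNA setting. Counter lines that name no gene were left out, and 5 stand in each file. No column of other samples was used.

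DESeq2 1.42.0 (R 4.3.3) was fitted to the 4 Day4 libraries, without a replicate block, with shrinkage of fold changes on and the Cook and independent filters off, as in the methods of the study. Calls required a Benjamini-Hochberg adjusted p no higher than 0.05, an absolute log2 fold change no smaller than 1 and a mean normalised count from 5 upwards. All adjusted p-values are from this test, over 15922 genes, unless another test or setting is named. Such settings are edgeR 4.0.16 (quasi-likelihood), the interaction, Undiff, library totals, the replicate block and the fits without a library. The interaction was fitted to all 8 libraries, over 17267 genes and without shrinkage. The DESeq2 and edgeR tests at Day4 were also run on counts simulated with known changes, and the outcome is not given here.

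Of 24421 symbols, 24020 matched the GENCODE annotation of GRCm38 (release vM21, not the annotation of the counts), which gave length, GC, exons and overlaps. Copies were found with minimap2 2.31-r1302. Members and lists were chosen with earlier results of these data known. Genes named are the 8 highest and 8 lowest calls without exon overlap and the 4 of each with opposite-strand overlap, all with a mean of at least 50, the highest, lowest and most counted gene of each list, and the genes called in the interaction. Most counted means most reads summed over the 4 Day4 libraries, to which the deeper cDNA libraries add more. Rps23, Rpl37a, Ilk, Meg3, Tug1, Col18a1, Gata4, Crabp2, Nr2f2, Peg3, Peg10, Ndufa5, the further collagen and RA response genes, Hoxa5 and Rarb were chosen after their values were seen. Some genes that these rules name are not reported here. By the study, RNA of the same 2 cultures went into both kits. Whether a replicate number marks the same culture on both is not given in the sources used here, so the test treats libraries as unpaired. Alternatives were edgeR, other normalisations, no shrinkage, filters, a fit to all 8 libraries, the replicate block, and leaving out each library.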

Additional observations from a re-analysis of the deposited data

Results flagged for a closer look

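The kit difference of 2 genes differed between Day4 and Undiff by the DESeq2 test of the interaction of kit and state. The interaction was fitted without shrinkage, and the kit differences given beside it with shrinkage. Clmp had an interaction of -7.157 ± 1.36 (SE) on the log2 scale (adjusted p = 0.0025), with a kit difference of -1.31 at Day4 (adjusted p = 0.13) and 4.67 in Undiff (adjusted p = 3.1e-06). Plvap had an interaction of -4.244 ± 0.925 (adjusted p = 0.039), with -3.01 at Day4 (adjusted p = 3.7e-05) and 0.79 in Undiff (adjusted p = 0.58). Both rest on few reads, 1 to 97 for Clmp and 8 to 61 for Plvap over the 8 libraries. With the replicate block Plvap was no longer called, Clmp stayed at -7.19 (adjusted p = 0.022), and 1 further gene was called, Aplp1 at -3.05.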

How the results depend on the processing

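The number of calls was 3320 with DESeq2 and 5150 with edgeR (2681 higher, 2469 lower), and 1164 to 1509 without each library in turn. It was 3317 with TMM factors, 3276 without shrinkage, 3293 with all 8 libraries, 3560 with the Cook and independent filters and 2518 among genes that reached 10 reads in all 4 libraries. Library totals, the basic transcript set, coding length, copies, covered share and the crossed pairing were added after seeing the data. With the replicate block 2377 genes were called (1401 higher, 976 lower), and the differences between replicates correlated between the kits at r = -0.2846 over 1936 genes. Meg3, H19, Rian and the summed level of the pluripotency genes nevertheless differed between replicates in the same direction on both kits. Whether the numbers pair the cultures cannot be told from these values. The crossed pairing called 3006. The interaction called 14 genes with edgeR, and detection at equal depth differed by -1755.25 genes against 1055.5 as sequenced.

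Class values here are differences from the median of all genes under the same setting. With a mean of at least 50, long noncoding genes moved from 1.227 to 0.6484, genes over 60% GC from -1.76 to -2.113, genes of 20 or more exons from -0.9039 to -1.204, collagen chains from -2.275 to -3.4 and opposite-strand overlap at the 3′ end from -1.107 to -1.027 (-1.207 with edgeR). Transcripts up to 1000 bases moved from 1.456 to 0.4195 with the median over transcripts. The sign turned, among classes whose value exceeded the replicate spread, for 2000 to 3000 bases (-0.164 at a mean of at least 50, -0.3662 with the median over transcripts), for 1 exon with the basic transcript set (-0.2822) and, at a mean of at least 50, for overlap with the 3′ end outside it (0.01631), translation factors (-0.3135) and heat shock proteins (-0.4706). Among classes within that spread it also turned at that mean for over 8000 bases (0.05826), 50 to 55% GC (-0.005237), 3′ untranslated regions over 4000 bases (0.1855), 12 or more A (-0.003789), Zfp genes (0.4987) and RA response genes (-0.6465), and the cause was not tested.

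Without each library, the class values ran from 0.7932 to 1.421 for long noncoding genes, 1.044 to 1.752 for transcripts up to 1000 bases, -0.7441 to -0.4946 for 5000 to 8000 bases, -1.701 to -1.527 for over 60% GC, -0.9606 to -0.7613 for 20 or more exons, -1.04 to -0.9334 for overlap at the 3′ end, 1.247 to 2.022 for respiratory chain and -2.628 to -1.729 for collagens. The difference in share, in percentage points, ran from -2.348 to -1.587 (over 60% GC), -3.318 to -2.786 (3′ overlap), -0.4379 to -0.2117 (collagens), 1.562 to 3.533 (respiratory chain), 0.2847 to 0.4258 (long noncoding), -6.002 to -3.451 (20 or more exons), -5.155 to -1.674 (5000 to 8000 bases) and 3.248 to 8.679 (up to 1000 bases).

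Uncalled genes changed sign with library totals (Mir7666 -0.2087, Snhg6 -0.7209, Hsp90ab1 -0.1295, Hnrnpa0 -0.02871, Apoe -0.3742, Acta2 -0.3493, Sparc -0.5937), and Snhg6 also with the filter (-0.1233) and all 8 libraries (-0.09566). Without each library the range was -0.5664 to 1.011 for Mir7666, -0.1209 to 0.2523 for Snhg6, -0.4137 to 2.143 for Dppa5a, -0.03801 to 0.4469 for Sparc and -0.1665 to 0.06482 for Serpinh1. Of 104 named calls, 10 were lost with library totals, 10 with the replicate block, and 21 to 27 without 1 library.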
